A study of Mus musculus with 2 samples.

Results

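The 6 Pwp1 peaks around the Stat3 gene were examined in mouse embryonic stem cells. They are the peaks on chromosome 11 whose centre lies in a 1 Mb window from 100.3 to 101.3 Mb of the mouse build mm9, out of 589 peaks on chromosome 11 and 5639 in the whole list. The window was set by the position of the gene and not by the peaks. Chromatin immunoprecipitation followed by sequencing (ChIP-seq) recovers the DNA that an antibody pulls down with a protein, and a peak is a stretch where that DNA piles up. The series holds 1 library made with a Santa Cruz antibody against Pwp1 and 1 library of input DNA, which was made with no antibody. Both came from E14.1, a line of mouse embryonic stem cells, which grew on gelatin. The medium held LIF at 1000 units per ml beside 15% fetal bovine serum. The labels name no genetic change, treatment arm or further clone or culture, so the peaks describe 1 line in 1 growth state. The peak list of the ChIP library is the measurement used here. It gives the chromosome, start and end of each peak and no height, so neither the strength of a peak nor the depth behind it is known. A peak list measures no expression, and the identity of the cells was not checked against marker genes.

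Stat3 encodes a transcription factor that waits in the cytoplasm until a cytokine receptor is engaged. LIF binds the receptor pair Lifr and Il6st (gp130), the kinases of the Jak family phosphorylate Stat3 on a tyrosine, and paired Stat3 molecules enter the nucleus and bind DNA. In mouse embryonic stem cells this pathway sustains self-renewal through targets such as Klf4 and Tfcp2l1, and Socs3, itself a target, dampens it. Pwp1 is a nuclear protein with WD repeats, a fold that commonly serves as a platform for other proteins. The title of the series places Stat3 signalling downstream of Pwp1, and the question addressed here is whether the Pwp1 peak list holds peaks at or near the Stat3 gene.

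No peak lay inside Stat3. The gene was taken at 100.75 to 100.80 Mb of mm9 on the minus strand, with both bounds rounded to 10 kb, so its start is at the higher position. Within 50 kb of the gene there were 0 peaks, and within 100 kb there were 2, both upstream. Within 250 kb there were 5 peaks, 4 upstream and 1 downstream, and within 500 kb all 6, of which 4 lay upstream and 2 downstream. The nearest peak centre was 56.4 kb upstream of the start. Moving the bounds outward or inward by 5 kb, which covers their rounding, put it at 51.4 or 61.4 kb, and the gene stayed without a peak.

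The promoter of Stat3 is shown because it is the stretch just before the start of the gene. The 196 bases run from the 5′ side up to the outermost start of the gene in RefSeq (build GRCm38.p6, minus strand). The capitals mark matches to 2 common promoter elements.

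Stat3 promoter: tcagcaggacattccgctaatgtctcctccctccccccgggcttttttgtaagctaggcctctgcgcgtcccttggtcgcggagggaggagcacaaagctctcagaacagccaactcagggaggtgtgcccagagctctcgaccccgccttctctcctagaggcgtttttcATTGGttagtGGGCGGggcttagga

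On either strand, the stretch held 1 match to the CCAAT box (CCAAT, found here as ATTGG on the strand printed) and 1 match to the GC box (GGGCGG). It is the first 196 bases of the Stat3 entry, and the same bases were taken from all 32851 RefSeq promoter entries at hand. Entries begin 250 bases before their own start, so these stretches stop short of it and need not end at a gene's outermost start. Of them, 27.8% held a CCAAT match and 23.9% a GC box match. The site that STAT proteins recognise, searched as TTCNNNGAA, had 0 matches in the Stat3 stretch and was present in 5.66% of all stretches. The G and C share of the Stat3 stretch was 59.2%, against a mean of 52.4% over all stretches. These matches describe the letters of the promoter. No peak of the list reached the start of the gene in mm9, since the nearest peak edge was 56.3 kb from its rounded bound. The promoter stretch itself, from a later build, was not placed on mm9.

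The upstream side of Stat3 carried 4 of the 6 peaks. The nearest were chr11:100856285-100856451 and chr11:100861979-100862145 (mm9, counted from 1). The first of these peaks was 167 bp wide and lay 56.4 kb from the start of Stat3. The second was also 167 bp wide and lay 62.1 kb from it. Their centres were 5.69 kb apart, and of the 588 distances between neighbouring peak centres on chromosome 11 only 14, this one included, were as short. In the list as a whole 167 bp was the commonest width, and 31.9% of the chromosome 11 peaks had exactly this width. On chromosome 11, 65 of 588 neighbouring pairs (11.1%) had that width on both sides. Of the 27 pairs within 10 kb, 3 did, including the pair upstream of Stat3.

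Farther upstream were chr11:100990488-100990700 and chr11:101020415-101020603. The former was 213 bp wide, the widest of the 6, and lay 191 kb from the start of Stat3. The latter was 189 bp wide and lay 221 kb from it. They were 29.9 kb apart, and 91 of the 588 distances on the chromosome were as short.

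Downstream of Stat3, past its 3′ end, lay 2 peaks. The peak chr11:100522735-100522901 was 167 bp wide and lay 227 kb from the gene's near edge. The peak chr11:100445996-100446190 was 195 bp wide and lay 304 kb from it. Both were farther from Stat3 than any of the 4 upstream peaks.

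**Figure D1:**
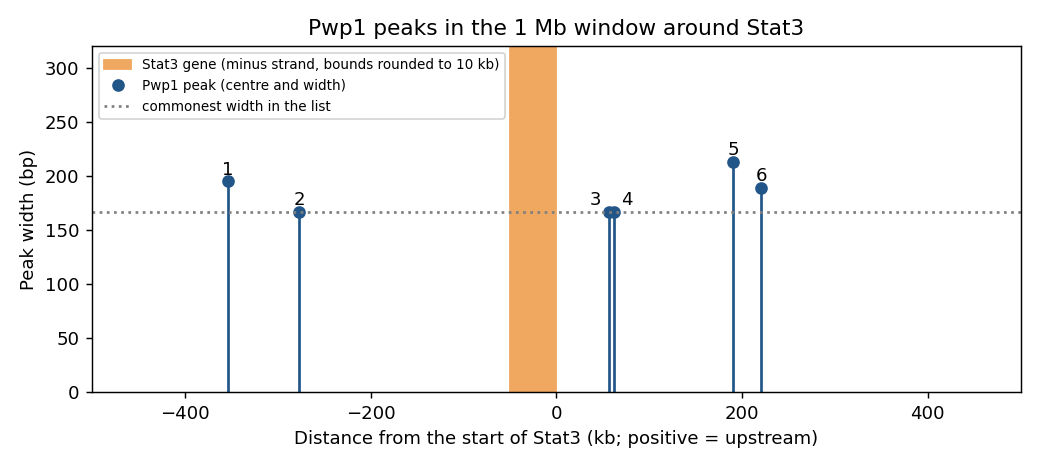
The 6 Pwp1 peaks of the 1 Mb window, numbered by position, each drawn as a line at its centre with its width in bp as height, against the distance from the start of Stat3 in kb (positive values are upstream). The gene (orange, bounds rounded to 10 kb) holds no peak, the nearest lies 56.4 kb upstream, and the dotted line marks the commonest width of 167 bp.

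The neighbours of Stat3 are given by their order only, since the gene table at hand is of GRCm38, a later build than the peaks. On the downstream side the next genes are Stat5a and Stat5b, which encode paralogous STAT factors that respond to cytokines and hormones, then Ghdc, Hcrt, the precursor of the orexin peptides, and Kcnh4, a voltage-gated potassium channel. On the upstream side follow the long non-coding RNA gene Gm46295, then Cavin1, a coat protein of caveolae, Atp6v0a1, a subunit of the proton pump of lysosomes and vesicles, the microRNA gene Mir6928, and Naglu, a lysosomal enzyme that degrades heparan sulfate. Which of these genes the 6 peaks are nearest to was not analysed here.

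The window around Stat3 held about as many peaks as is usual on its chromosome. Its 6 peaks (exact 95% Poisson interval 2.20 to 13.1, counting error only) compare with a median of 5 and quartiles of 3 and 7 over the 118 windows of 1 Mb laid end to end along chromosome 11. The mean of those windows was 4.92 ± 2.57 (SD over windows), so the Stat3 window lay above it by less than 1 SD. Of the 118 windows, 33 held more peaks, 15 held 6, counting the Stat3 window itself, and 70 held fewer. Thus 40.7% of the windows of chromosome 11 held at least 6 peaks (exact 95% interval 31.7 to 50.1, which treats windows as independent). The 118 windows are all that were laid, so this interval describes no sampling of windows. The windows ranged from 0 to 11 peaks, and 3 were empty. With 1 library there is no replicate error and no test of this difference.

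In the nearest surroundings the count was likewise within the usual range. The 5 windows on either side of the Stat3 window held 2 to 11 peaks, with a mean of 5.60 ± 2.50 (SD over 10 windows). Of these 10 windows, 4 held more peaks than the Stat3 window and 6 held fewer. Both adjoining windows held 4 peaks. The highest count on the whole chromosome, 11 peaks, lay in the window that starts 2 Mb below the Stat3 window.

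**Figure D2:**
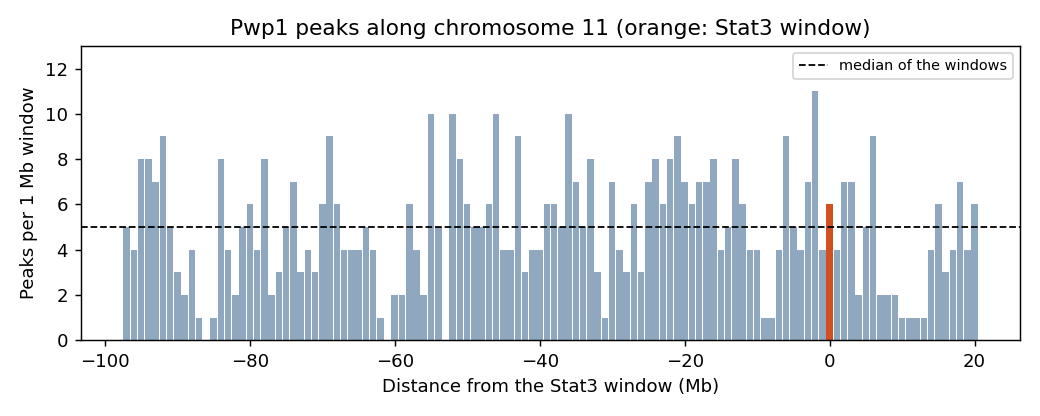
Number of Pwp1 peaks in each of the 118 windows of 1 Mb on chromosome 11 against the distance from the Stat3 window in Mb, with the median of 5 peaks as a dashed line. The Stat3 window (orange) has 6 peaks, and 33 windows have more.

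Set against other autosomes, the same count was less common. Over the 2350 windows of the 19 autosomes the median was 2 peaks, and 11.4% held at least 6. On the autosomes other than chromosome 11 this share was 9.81% of 2232 windows (exact 95% interval 8.61 to 11.1). It was lowest on chromosome 13, at 0.893%, and highest on chromosome 1, at 33.3%. On chromosome 14 it was 27.1%. The share on each of the 18 other autosomes thus lay below the 40.7% of chromosome 11.

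How near a stretch as long as Stat3 usually lies to a peak was computed from every possible placement of 50 kb between the first and last peak of a chromosome. On chromosome 11, 21.7% of placements held a peak centre, and 78.3% held none, as Stat3 did. A peak centre within 56.4 kb was present for 52.5% of placements, so Stat3 was about as near to its closest peak as a typical place on chromosome 11. On the other 18 autosomes a peak as near was found for 19.3% (chromosome 3) to 47.3% (chromosome 1) of placements, with a median of 24.8%. A peak inside the stretch was found for 6.82% to 18.6%, with a median of 9.11%. These shares count places and not genes, so they say nothing of how often other genes lie near a peak.

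**Figure D3:**
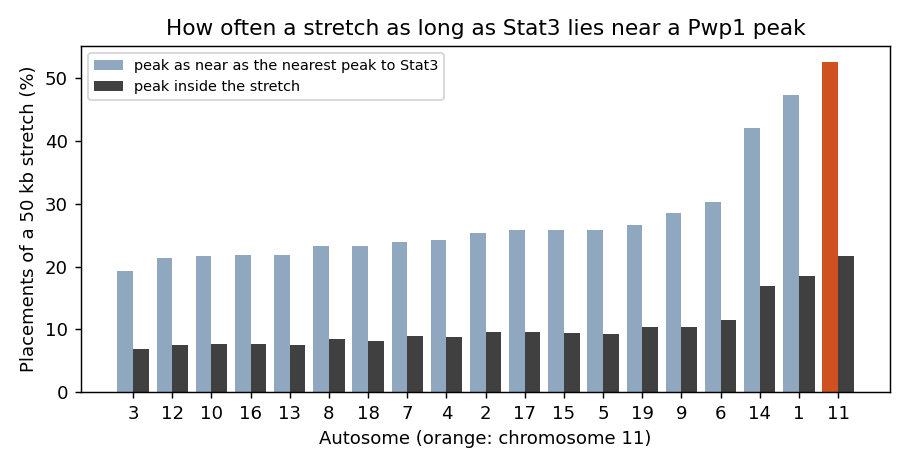
Percent of placements of a 50 kb stretch, as long as Stat3 in rounded bounds, that have a Pwp1 peak centre within 56.4 kb (blue bars, orange for chromosome 11) or inside them (dark bars), for each of the 19 autosomes. Chromosome 11 has the highest value of both, 52.5% and 21.7%.

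Stat3 lay in a stretch without peaks that was longer than most on chromosome 11, but usual for a place on it. From the nearest peak downstream to the nearest upstream, the centres were 334 kb apart, against a median of 126 kb and quartiles of 50.02 and 277 kb between neighbouring peaks on chromosome 11. Of the 588 such distances, 118 (20.1%) were at least as long. Since long stretches take up more of the chromosome, 56.3% of its length between the first and the last peak lay in stretches at least as long as the one that holds Stat3. In bins of 100 kb, 5 of the 10 bins of the window held a peak and 5 held none, and the bin just upstream of the start of Stat3 was the only one with 2.

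The limits of the window cut through stretches without peaks. The outermost peak inside on the downstream side lay 146 kb from the limit and the next one outside, chr11:100197790-100198067 with 278 bp, lay 102 kb beyond it. On the upstream side the last peak inside lay 279 kb from the limit. The next one outside, chr11:101677583-101677682 with 100 bp, lay 378 kb beyond it. The distance between these last peaks, 657 kb, was among the 24 longest of the 588 on the chromosome.

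**Figure D4:**
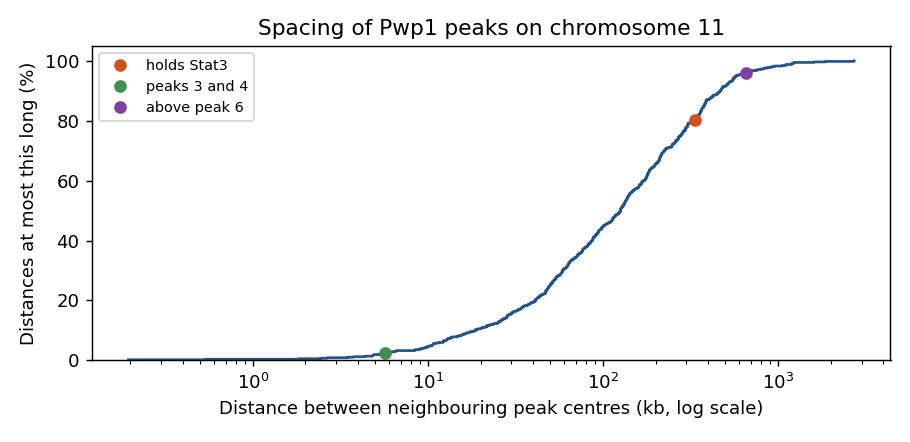
Cumulative percent of the 588 distances between neighbouring Pwp1 peak centres on chromosome 11 (x axis in kb, log scale). The distance that holds Stat3 (334 kb), the one between the nearest upstream peaks 3 and 4 (5.69 kb) and the one above peak 6 (657 kb) are marked, and 118 distances are at least as long as the first.

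The 6 peaks had widths of 167, 167, 167, 189, 195 and 213 bp. Their median was 178 bp and their mean 183 ± 19.2 bp (SD over 6 peaks). On chromosome 11 the median was 167 bp, the mean 194 ± 72.2 bp (SD over 589 peaks) and the range 71 to 976 bp. Of the 6 peaks, 3 (exact 95% interval of the share 11.8% to 88.2%) were wider than 167 bp, against 46.3% (42.3 to 50.5) of all peaks of chromosome 11 and 32.1% (30.9 to 33.3) of autosomal peaks. The remaining 3 had exactly that width, against 31.9% of all peaks of chromosome 11 and 30.6% of autosomal peaks. Of the 6 peaks 0 were narrower, against 21.7% narrower on chromosome 11. A width of 213 bp was exceeded by 26.8% of the chromosome's peaks, so the widest peak near Stat3 was not among its widest. The interval for the 6 peaks treats them as independent. They are all the peaks of the window, so it describes no sampling of peaks, and nothing on a difference of shares is drawn from it. Since peaks of 1 list are not replicates, widths were not tested. Together the 6 peaks covered 1098 bp of the window.

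**Figure D5:**
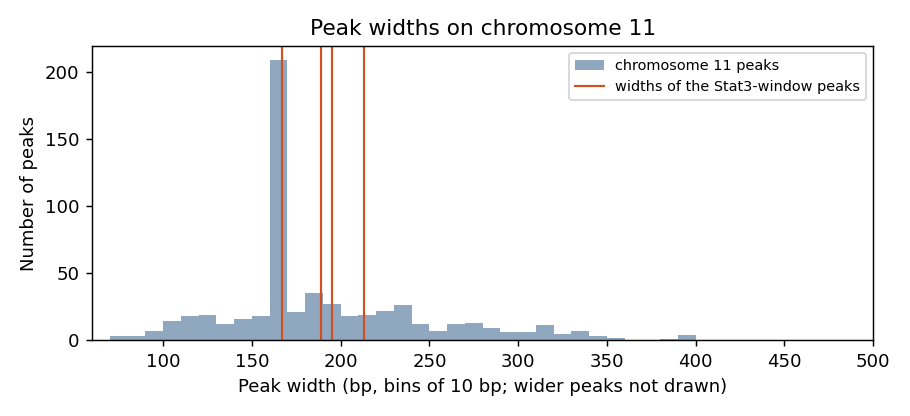
Number of chromosome 11 peaks by width in bp (bins of 10 bp, 4 peaks beyond the axis not drawn), with the widths of the Stat3-window peaks as orange lines. The lines at 167, 189, 195 and 213 bp all lie in the middle of the distribution, and 3 peaks share the line at 167 bp.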

How the data were processed

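The authors deposited 1 peak list for the ChIP library, with chromosome, start and end in base pairs in 3 columns and no other value. CASAVA 1.4, Bowtie 0.12.7, HOMER 4.3 and the build mm9 are named, without roles, per the submitters' processing notes. For the peak threshold, the filters and the use of the input nothing is given in the sources used here. Binding below that threshold is not in the list. The input library was not analysed here. Starts were read as counted from 0 and are printed counted from 1.

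Peaks were assigned by their centre. Windows of 1 Mb were laid in step with the Stat3 window and kept where they lay wholly between the first and last peak of a chromosome. Counts have exact Poisson and shares exact Clopper-Pearson intervals at 95%, which cover counting error only. Shares of windows count every window kept, so their intervals describe no sampling of windows. The depth is unknown. No test was made, since there is 1 ChIP library. The gene bounds came with the choice of the region, rounded to 10 kb, and were not read from an mm9 annotation. No genome of mm9 was used, so peak sequences are not shown, and the other genes of the LIF pathway were not placed against peaks. RefSeq tables of GRCm38.p6 gave the order of genes (by rule, the next 5 on either side of Stat3) and the promoter, matched by symbol (1 of 1). Python 3.11.15, numpy 2.4.6, pandas 2.3.3, scipy 1.17.1 and matplotlib 3.10.9 were used, and the counting was tested on simulated data. The region and the measures were chosen with earlier results of these data known.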

Additional observations from a re-analysis of the deposited data

How the results depend on the processing

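Of 38 recomputed values, 28 stayed near the reported value and 10 moved. Near meant within 1.5 times (counts and lengths), the 95% interval (shares), 5 kb (distance) or 1 SD (width). Some of the 28 could not move, so their number is no measure of robustness. Settings that changed only the windows of comparison left the count of 6 peaks as it was by construction. The 6 peaks became 11 in a 2 Mb window, 3 without peaks of the commonest width and 3 with only wider peaks. The 40.7% of chromosome 11 windows with at least as many peaks became 28.7% with 500 kb windows, 61.9% without peaks of the commonest width and 11.4% over windows of all autosomes. Settings chosen after seeing the data gave 50.8% with peaks within 10 kb merged, and 29.7% or 66.9% with the window moved by 250 kb towards lower or higher positions. Merging within 10 kb also left 1 peak in place of 2 within 100 kb of Stat3. The nearest distance ranged from 51.4 to 61.4 kb. Shifted bounds could not make it count as moved, since the shift and the tolerance were both 5 kb. The distance to the start of the gene equals the reported one, because the nearest peak lies upstream. The 334 kb stretch was the same, and taking the middle of the gene could not change it, since the gene holds no peak. The median width of 178 bp became 167 bp in the 2 Mb window, and the mean in its place was 183 bp. Both counted as near because the tolerance was 1 SD. A stricter threshold could not be tried, because the list holds no value per peak. No paired analysis was possible because only 1 library was immunoprecipitated. The unknown depth limits what a stretch without peaks shows.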
